A study of Mus musculus with 16 samples.

Results

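The genes described here carry glucose from uptake to lactate export. They are 37 mouse genes, listed by symbol, out of the 56748 genes in the deposited counts table, and each symbol matched 1 row. They encode glucose transporters, the enzymes of glycolysis, lactate dehydrogenase, the transporters that move lactate out of the cell, the kinases that hold pyruvate back from the mitochondria, and *Hif1a*, the oxygen-responsive regulator of many of them. They were measured by RNA-Seq in TM4, a mouse cell line of Sertoli cell origin, 24 h after transfection with 2.5 µg of plasmid per well. The plasmid was an empty vector (EV, 6 samples), or it carried *gdf6Y*, the male sex-determining gene of the killifish *Nothobranchius furzeri* (5 samples), or *gdf6Y* del9, a variant with a small in-frame deletion in the prodomain (5 samples). All 16 samples thus share the transfection, the vector backbone and the high-glucose medium, and the table counts mouse genes, so it does not show the level of the plasmid transcript. The labels number the replicates but do not say whether they came from separate cultures on separate days. The p-values therefore refer to these samples only. Between 21486850 and 26444903 reads per sample were counted on genes.

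Sertoli cells nurse the germ cells of the testis. They take up glucose, convert most of it to pyruvate and then lactate, and hand the lactate to the developing germ cells, which burn it. Each step of glycolysis is run by one of several isoenzymes encoded by different genes, and the isoenzymes differ in their regulation, so the mix a cell expresses is part of its metabolic profile. Many of these genes are known targets of the Hif1a protein, which binds short DNA elements holding the letters ACGTG and which is controlled mostly by protein breakdown, not by its mRNA.

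The cells carried only part of a Sertoli cell profile. Of 13 Sertoli cell markers 6 had a mean normalized count of at least 10 (*Gata4*, *Sox9*, *Dhh*, *Kitl*, *Inha* and *Clu*), and *Wt1* was at 0 in every sample. The summed normalized count of the 13 markers was 1702 to 1784 with EV, 1523 to 1636 with *gdf6Y* and 1596 to 1751 with *gdf6Y* del9. Of 4 markers of peritubular myoid cells, *Acta2*, *Des* and *Cnn1* had a mean of at least 10, and the list summed to 4478 to 4714, 4710 to 5057 and 4571 to 4840 in the same order. *Gata4* fell with *gdf6Y* against EV (log2 fold change -0.20, adjusted p = 9.98e-05, edgeR's quasi-likelihood test). The 6 germ cell markers summed to at most 5.5 in any sample. The part of these markers in the results below was not tested.

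The promoters of 4 members frame the results, because *Ldha* and *Pgk1* had the smallest adjusted p-values among the members that were higher with *gdf6Y* than with EV, and *Hif1a* and *Eno2* the smallest among those that were lower with *gdf6Y* del9. Each sequence runs from 250 bases before to 50 bases after a transcript start of RefSeq (GRCm38.p6), 300 bases in all, and capitals mark ACGTG read on either strand, with CACGT as its reverse complement. Where both strands match at 1 place, the capitals run together as CACGTG. *Ldha* (chr7:46845554-46845853, plus strand) held 5 matches, 4 of them in 2 such paired places, and its other listed promoter (chr7:46846832-46847131), not printed, held 0. *Pgk1* (chrX:106186850-106187149, plus strand) held 2, and *Hif1a* (chr12:73907617-73907916, plus strand) held 3. *Eno2* (chr6:124769624-124769923, minus strand) held 0.
Ldha: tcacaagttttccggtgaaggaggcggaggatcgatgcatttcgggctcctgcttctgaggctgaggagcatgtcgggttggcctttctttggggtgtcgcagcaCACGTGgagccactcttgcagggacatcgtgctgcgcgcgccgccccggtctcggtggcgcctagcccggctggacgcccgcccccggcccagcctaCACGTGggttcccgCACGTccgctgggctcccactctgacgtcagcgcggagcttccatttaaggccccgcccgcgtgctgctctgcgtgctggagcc
Pgk1: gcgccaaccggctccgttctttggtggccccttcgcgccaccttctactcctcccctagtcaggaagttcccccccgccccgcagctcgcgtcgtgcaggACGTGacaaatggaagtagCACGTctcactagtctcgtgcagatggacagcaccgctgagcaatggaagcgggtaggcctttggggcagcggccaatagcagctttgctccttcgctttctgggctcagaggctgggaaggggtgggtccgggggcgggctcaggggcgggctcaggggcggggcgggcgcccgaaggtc
Hif1a: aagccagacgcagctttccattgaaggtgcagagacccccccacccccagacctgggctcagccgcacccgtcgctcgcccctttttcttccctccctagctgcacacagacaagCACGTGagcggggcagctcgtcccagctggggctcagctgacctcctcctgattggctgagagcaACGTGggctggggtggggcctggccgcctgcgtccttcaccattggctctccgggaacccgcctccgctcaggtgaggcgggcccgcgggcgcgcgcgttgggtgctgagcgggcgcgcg
Eno2: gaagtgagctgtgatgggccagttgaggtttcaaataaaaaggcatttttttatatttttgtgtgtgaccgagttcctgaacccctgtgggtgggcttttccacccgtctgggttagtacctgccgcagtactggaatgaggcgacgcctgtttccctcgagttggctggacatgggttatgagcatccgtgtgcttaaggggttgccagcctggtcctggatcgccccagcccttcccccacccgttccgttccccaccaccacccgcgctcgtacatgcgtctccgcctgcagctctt
Promoters were given for 33 of the 37 members, 52 promoters in all, and 23 of the 52 (44.2%) held at least 1 match, against 6447 of all 32851 promoters (19.6%). *Slc16a1*, *Hk2*, *Slc16a3* and *Gapdh* were among the members with a match, while *Gpi1*, *Pfkl*, *Pfkp*, *Tpi1*, *Eno3* and *Ldhb* had none in these windows. These are letter matches only.

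Several glycolytic enzyme genes and *Ldha* stood at the top of the group, and the kinases that hold pyruvate back from the mitochondria far below. Levels between genes were compared as reads per kb of the canonical transcript, scaled to library size (RPKM). With EV, the highest per-length levels were those of *Pkm*, the pyruvate kinase of most non-liver tissues, at 1162 ± 45.1 RPKM (SD, n = 6), of *Ldha*, the lactate dehydrogenase subunit that favours lactate production, at 1069 ± 27.7, of *Gapdh* at 1012 ± 37.3 and of the aldolase gene *Aldoa* at 975 ± 39.8. The sample ranges of neighbours in this order overlapped from *Pkm* down to *Aldoa*, so their order is not resolved. *Tpi1*, the triose phosphate isomerase gene, followed at 861 ± 35.8 RPKM, below every *Aldoa* sample. *Pgam1* and *Gpi1*, for phosphoglycerate mutase and glucose phosphate isomerase, stood at 149 ± 5.72 and 142 ± 4.91 RPKM, and *Pdha1*, a subunit of the enzyme that takes pyruvate into the mitochondrial route, at 109 ± 1.55. *Eno1*, *Bsg* and *Pgk1* lay between 280 and 355 RPKM in the EV samples and overlapped from each to the next. Entry steps were lower: *Hk1*, the hexokinase that commits glucose to the pathway, stood at 70.3 ± 3.30 RPKM and the glucose transporter gene *Slc2a1* at 25.4 ± 1.67. *Pkm* exceeded *Hk1* 16.5 ± 0.183-fold per length with EV. The kinase genes *Pdk3* and *Pdk1* stood at 28.3 ± 0.873 and 21.3 ± 1.07 RPKM with EV.

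The isoenzyme mix was lopsided at most steps and differed little between the groups. *Ldhb*, the subunit that favours pyruvate, made up 3.31% ± 0.129 of the per-length level of *Ldha* and *Ldhb* together with EV, 2.98% ± 0.139 with *gdf6Y* and 3.08% ± 0.172 with *gdf6Y* del9 (SD, n = 6, 5 and 5), and *Ldha* the rest. *Aldoa* made up at least 99.98% of the aldolase level in each sample, and *Aldoc*, the brain form, had 2 to 12 normalized counts. *Slc2a1* made up 82.3% ± 1.15 of the summed level of the 4 glucose transporter members with EV (other transporters of the family left out), *Slc2a8* 9.57% ± 1.18 and *Slc2a3* 8.08% ± 1.09, while *Slc2a4*, the insulin-responsive transporter of muscle and fat, had at most 5 normalized counts in a sample. *Hk1* made up 82.3% ± 0.876 of the hexokinase level and *Hk2* 17.7% ± 0.874, and *Hk3* had at most 1 normalized count in a sample. In each of these sets 1 gene held most of the level of the listed members.

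Other steps were shared. The 3 subunit genes of phosphofructokinase 1, which carries out the main controlled step, split as 49.5% ± 0.963 *Pfkl*, 28.1% ± 0.556 *Pfkp* and 22.4% ± 0.699 *Pfkm* with EV. Among the enzymes that make its activator, fructose 2,6-bisphosphate, *Pfkfb3* made up 54.7% ± 1.36 and *Pfkfb1*, the liver and muscle form, 28.4% ± 1.13, with *Pfkfb4* at 9.45% ± 0.901 and *Pfkfb2* at 7.41% ± 0.537. Among the 3 enolase members, with the retrogene *Eno1b* left out, *Eno1* made up 69.4% ± 0.420, *Eno3*, the muscle form, 24.8% ± 0.376 and *Eno2*, the neuronal form, 5.73% ± 0.550. *Eno3* thus stood at 122 ± 1.40 RPKM, above *Hk1* in these cells. The kinases that switch off pyruvate dehydrogenase were mainly *Pdk3* (56.1% ± 0.752) and *Pdk1* (42.1% ± 0.709), with *Pdk2* at 1.78% ± 0.124 and *Pdk4*, the fasting-induced form, at 0.0429% ± 0.0264.

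Among the listed lactate export genes, most of the mRNA came from *Slc16a1*, which encodes the transporter MCT1, and *Bsg*. *Bsg* encodes basigin, the partner that carries MCT1 to the cell surface. Lactate transport itself was not measured. *Slc16a1* stood at 42.3 ± 0.742 RPKM with EV and made up 99.3% ± 0.199 of the summed level of the 3 members *Slc16a1*, *Slc16a3* and *Slc16a7*, other carriers of the family left out. *Slc16a3*, which encodes MCT4, stood at 0.310 ± 0.0839 RPKM, and no read was counted on *Slc16a7* (MCT2) in any of the 16 samples. A count of 0 allows up to 0.0125 RPKM for *Slc16a7*, with 3 reads as the limit. MCT4 is the form usually found in strongly glycolytic cells. *Bsg* exceeded *Slc16a1* 7.35 ± 0.569-fold per length with EV.

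Some levels are lower limits. The authors discarded reads that map to several places, and several members have near-identical copies in the genome. Of all windows of the read length in the canonical transcript, 89.7% of *Pgk1*, 88.6% of *Pgam1*, 85.1% of *Gapdh* and 51.7% of *Eno1* had an exact copy elsewhere in the genome (GRCm39), against 12.1% of *Pkm*, 1.68% of *Ldha* and 0 for *Eno2*, *Eno3*, *Bsg* and *Hif1a*. These shares include windows that span 2 or more exons. Copied windows within 1 exon made up 37.7% of all windows of *Pgk1*, 71.4% of *Pgam1*, 50.6% of *Gapdh* and 20.7% of *Eno1*. Counts of *Eno1* and of the retrogene *Eno1b* (81.0% of windows copied) cannot be fully told apart. Rows annotated as copies took few reads: the 5 *Gapdh* copies held 539 reads over all samples against 585852 for *Gapdh*. Counts per gene also do not separate the PKM1 and PKM2 splice forms of *Pkm*.

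With *gdf6Y* against EV, 5 of the 36 members with counts changed, all by less than 10 percent. *Pgk1*, *Ldha* and *Gapdh* rose by 8.7%, 8.2% and 5.7%, and *Hif1a* and *Hk1* fell by 9.8% and 5.6%. Among all 26316 genes tested, 1.70% were called higher and 3.38% lower by the quasi-likelihood test of edgeR, with p-values adjusted by the Benjamini-Hochberg method. Its standard errors did not follow the spread of each gene closely. With *gdf6Y* del9 against EV they were 0.0322 for *Eno2* and 0.0258 for *Pdha1*. The SD of the log2 levels within groups was 0.206 and 0.0183 for these genes (16 samples). For widely spread genes such as *Eno2*, edgeR's p-values and intervals thus understate the spread between samples. Small changes pass this test more often in abundant genes: of the 5430 genes with a mean normalized count of at least 1000, 6.26% were called higher and 12.1% lower. All 5 called members are among the 24 members above that mean, and 3 of 24 higher and 2 of 24 lower are each within 2 genes of what these shares give for 24 genes. The median log2 fold change of the 32 members with a mean of at least 10 was 0.02, and of all 12578 such genes 0.00.

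*Ldha* (chr7:46490899-46505061 in GRCm39) had 40322, 42014 and 43058 normalized counts with EV (lowest, median and highest of 6) and 46573, 43124, 44397, 46559 and 45501 in the *gdf6Y* replicates 1 to 5. Every *gdf6Y* sample lay above every EV sample. The log2 fold change was 0.11 (SE 0.02, adjusted p = 0.000106, edgeR's quasi-likelihood test), and an exact permutation test of the group means, two-sided, gave p = 0.00433, the smallest that 6 against 5 samples allow. *Pgk1*, which makes the first ATP of the pathway and lies on chrX:105230706-105247305, had 12594, 13132 and 13632 counts with EV (lowest, median and highest) and 15043, 13434, 13691, 14654 and 14404 with *gdf6Y*. The *gdf6Y* sample was higher in 29 of 30 pairs of samples. Its log2 fold change was 0.12 (SE 0.03, adjusted p = 0.000165, edgeR; exact permutation p = 0.00866). With an offset for gene length it was 0.08 (adjusted p = 0.042, edgeR).

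*Gapdh*, which oxidizes the triose phosphate just upstream, averaged 35415 ± 1307 counts with EV (SD, n = 6) and 37388 ± 1725 with *gdf6Y* (SD, n = 5). The groups overlapped, since *gdf6Y* replicate 2 had 34734 counts and EV samples reached 37020. The log2 fold change was 0.08 (SE 0.02, adjusted p = 0.0223, edgeR), and the exact permutation test gave p = 0.0606. *Gapdh* was not called with DESeq2 (adjusted p = 0.0746), with filterByExpr (adjusted p = 0.0982), or without EV replicate 2, 3 or 5 or *gdf6Y* replicate 4 (adjusted p between 0.0541 and 0.117). *Hk1* fell from 7421 ± 348 to 6997 ± 472 counts (log2 fold change -0.08, SE 0.03, adjusted p = 0.0462, edgeR; exact permutation p = 0.13), with wide overlap. Its call was lost in 12 of the 21 alternative fits, among them DESeq2 (adjusted p = 0.168) and the fits without EV replicate 1, 3, 4 or 6 or *gdf6Y* replicate 2, 3 or 5 (adjusted p between 0.0521 and 0.366).

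*Hif1a* (chr12:73948149-73996321) had 8913, 10082 and 10558 counts with EV (lowest, median and highest) and 9183, 8141, 9027, 9823 and 8252 with *gdf6Y*. All *gdf6Y* samples lay below the EV median, but the groups overlapped, since EV replicates 2 and 5 were at 8913 and 9003. Its log2 fold change was -0.15 (SE 0.03, adjusted p = 5.86e-06, edgeR), with an exact permutation p of 0.0606. The call was lost with DESeq2 (adjusted p = 0.112) and with filterByExpr (adjusted p = 0.0637).

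*Hk2*, the inducible hexokinase (log2 fold change -0.09, adjusted p = 0.0811), *Tpi1* (0.07, adjusted p = 0.0834) and *Bsg* (0.07, adjusted p = 0.116) did not pass edgeR's test. Of the 32 members with a mean of at least 10, 4 had groups that did not overlap, against 5.24% of all 12578 genes: *Ldha*, *Eno3* and *Pfkfb1* were higher with *gdf6Y* and *Pdk2* was lower. *Eno3* had 5176 to 5348 counts with EV and 5366 to 5723 with *gdf6Y* (log2 fold change 0.07, adjusted p = 0.173, edgeR). *Pfkfb1* had 155.8 to 179.7 and 180.3 to 197.4 counts, and *Pdk2* 46.9 to 56.4 and 35.8 to 43.7. *Pdk2* and *Pfkfb1* were not called in any of the 21 alternative fits, and *Eno3* was called in 2 of them, DESeq2 being 1. For groups that do not overlap, the exact permutation test can only give the smallest p the design allows, 0.00433, unadjusted. It therefore adds nothing to the way these 4 members were picked.

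With *gdf6Y* del9 against EV, 8 members changed, and *Ldha*, *Pgk1*, *Gapdh* and *Hif1a* were called in the same direction as with *gdf6Y*. Both comparisons use the same EV samples, so they are not independent. *Eno3*, *Ldha*, *Bsg*, *Pgk1*, *Gapdh* and *Eno1* rose by 8.6%, 7.2%, 6.3%, 5.8%, 5.3% and 5.0%, and *Eno2* and *Hif1a* fell by 15.7% and 12.6%. Among all 26226 genes tested, 4.82% were called higher and 4.43% lower, and among genes with a mean of at least 1000, 17.2% and 11.6%. The 6 of 24 abundant members called higher and 2 of 24 called lower are each within 2 genes of what those shares give. The median log2 fold change was 0.03 for the 32 members with a mean of at least 10 and 0.01 for all such genes.

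*Eno3* (chr11:70546593-70553340), at 5176 to 5348 counts in the EV samples, had 5461, 5519, 6035, 5564 and 5828 in the *gdf6Y* del9 replicates 1 to 5. Every *gdf6Y* del9 sample was above every EV sample, and *Eno3* was the 1 member of 32 with groups that did not overlap, against 7.47% of all 12578 genes. The log2 fold change was 0.12 (SE 0.03, adjusted p = 0.000321, edgeR; exact permutation p = 0.00433). *Ldha* had 45230, 42287, 44883, 45249 and 46128 counts and lay above EV in 28 of 30 pairs (log2 fold change 0.10, SE 0.02, adjusted p = 0.000582, edgeR; exact permutation p = 0.013). *Eno3* and *Ldha* kept their calls in all 21 alternative fits of this comparison.

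*Hif1a* had 9154, 8269, 8265, 9280 and 8029 counts with *gdf6Y* del9. These were below the EV median of 10082, and 4 of 30 pairs were in the opposite order. The log2 fold change was -0.19 (SE 0.03, adjusted p = 6.94e-12, edgeR; exact permutation p = 0.026), and the call held in all 21 alternative fits. *Eno2* (chr6:124736247-124746636) had 1703, 1923 and 2281 counts with EV (lowest, median and highest) and 2115, 1219.5, 1349.5, 1788 and 1694 with *gdf6Y* del9. Replicates 2 and 3 of *gdf6Y* del9 were low and replicate 1 was near the top of EV, so the spread within *gdf6Y* del9 (SD 358) exceeded the difference between the means. The log2 fold change was -0.25 (SE 0.03, adjusted p = 7.83e-12, edgeR), yet the exact permutation test gave p = 0.117, and the call was lost with DESeq2 (adjusted p = 0.234) and filterByExpr (adjusted p = 0.0928). Leaving out 1 library gave values from -0.36 to -0.16, the latter without *gdf6Y* del9 replicate 2.

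The other calls were less stable. *Bsg* averaged 13858 ± 843 counts with EV (SD, n = 6) and 14705 ± 754 with *gdf6Y* del9 (SD, n = 5; log2 fold change 0.09, SE 0.02, adjusted p = 0.00645, edgeR; exact permutation p = 0.113), and its log2 fold change was 0.04 with an offset for gene length (adjusted p = 0.307). *Pgk1* rose by 0.08 on the log2 scale (SE 0.02, adjusted p = 0.0161, edgeR), which became 0.03 (adjusted p = 0.539) with an offset for gene length. *Gapdh* rose by 0.07 (SE 0.02, adjusted p = 0.0218, edgeR) and *Eno1* by 0.07 (SE 0.02, adjusted p = 0.0439, edgeR). The retrogene *Eno1b*, which shares sequence with *Eno1*, rose by 0.09 (adjusted p = 0.0207, edgeR), and the 2 rows together held 22550 ± 505 counts with EV and 23670 ± 905 with *gdf6Y* del9. Of the 21 alternative fits, 8 lost the call of *Bsg*, 8 that of *Pgk1*, 9 that of *Gapdh* and 13 that of *Eno1*. With the replicate number alone as a block, these calls held (adjusted p = 6.27e-06 for *Bsg*, 0.000642 for *Pgk1*, 5.26e-06 for *Gapdh* and 0.000604 for *Eno1*, edgeR). That fit also left out EV replicate 6, which has no counterpart. Leaving out 1 library was enough to lose each call. *Bsg* was not called without EV replicate 2 or 5 or *gdf6Y* del9 replicate 1 or 4 (adjusted p between 0.0565 and 0.111). *Pgk1* was lost without EV replicate 2 or 3 or *gdf6Y* del9 replicate 1 or 5 (0.0568 to 0.0735). *Gapdh* was lost without EV replicate 2, 3 or 5 or *gdf6Y* del9 replicate 4 or 5 (0.069 to 0.147). *Eno1* was not called without any of EV replicates 2 to 6 or *gdf6Y* del9 replicates 1, 3 and 5 (0.053 to 0.294), and its log2 fold change was 0.04 without *gdf6Y* del9 replicate 1. Without EV replicate 2, *Eno3* and *Ldha* were the only members called higher.

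With *gdf6Y* against *gdf6Y* del9, the comparison that isolates the deletion, 1 member changed. *Eno2* was 12.6% higher with *gdf6Y* (log2 fold change 0.17, SE 0.04, adjusted p = 0.000665, edgeR) and 0 members were called lower. *Eno2* was also the only member with an unadjusted p under 0.05, and DESeq2 called 0 members in either direction. Among all 25878 genes tested, 0.599% were called higher and 0.410% lower, and among genes with a mean of at least 1000, 1.07% and 1.44%. The *Eno2* counts with *gdf6Y* were 1920, 1562, 1719, 1884 and 2090, inside the range of *gdf6Y* del9 in each case, and the exact permutation test gave p = 0.278. The call was lost with DESeq2 (adjusted p = 0.968), filterByExpr (adjusted p = 0.649), edgeR 4's dispersion estimate (adjusted p = 0.339) and all 3 groups in 1 model (adjusted p = 0.183), and without *gdf6Y* del9 replicate 2 the log2 fold change was 0.08 (adjusted p = 0.681), against 0.28 without *gdf6Y* del9 replicate 1 (adjusted p = 3.71e-10). Without *gdf6Y* del9 replicate 3 or *gdf6Y* replicate 5 it was also not called (adjusted p = 0.341 and 0.169). None of the 32 members had groups that did not overlap, against 2.19% of all 12578 genes. For *Ldha* the difference was 0.02 on the log2 scale with a 95% interval from -0.03 to 0.07, and for *Hif1a* 0.05 with an interval from -0.01 to 0.11.

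**Figure D1:**
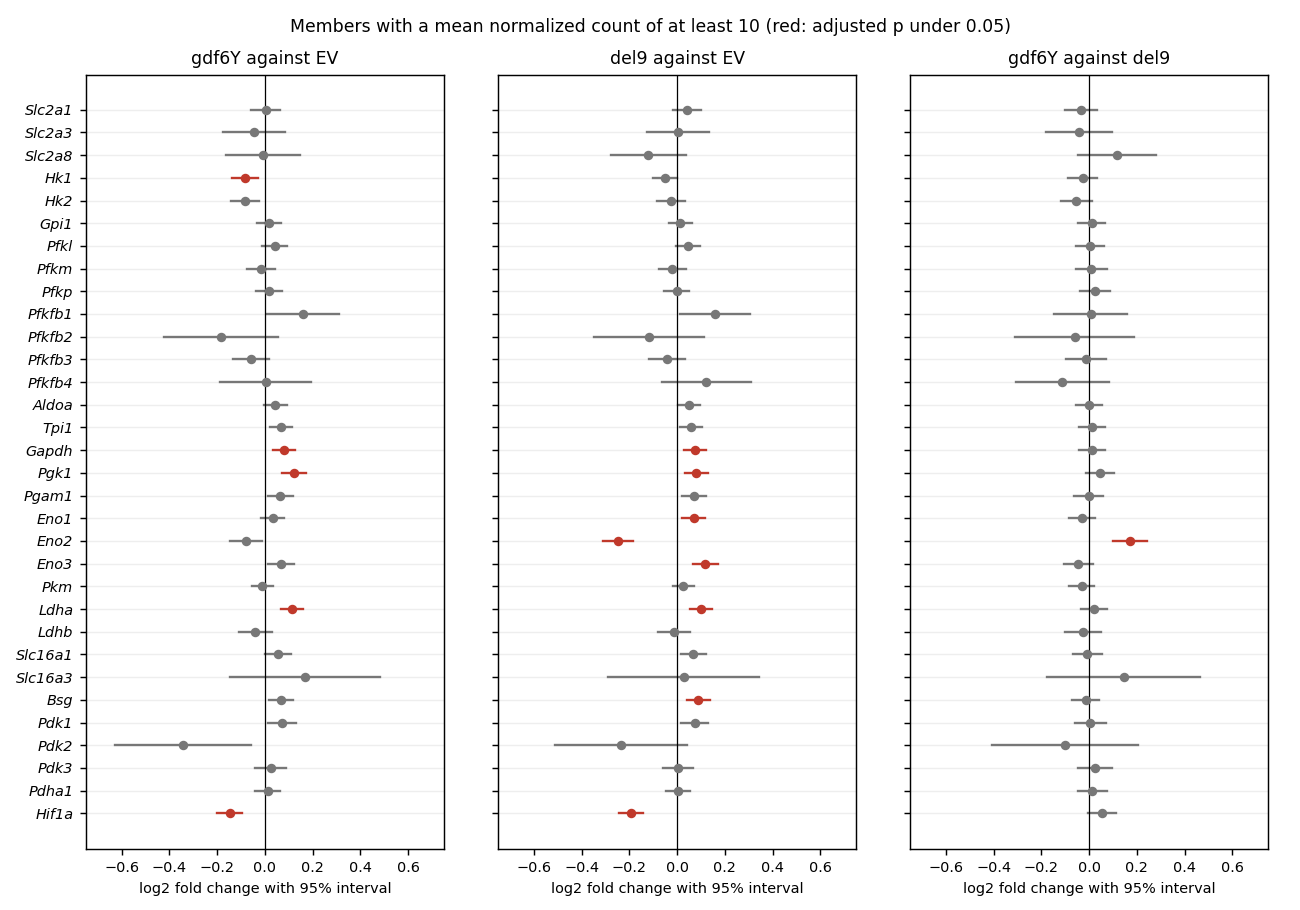
Log2 fold changes with 95% intervals of the 32 members with a mean normalized count of at least 10, in 3 comparisons; red marks an adjusted p under 0.05 (edgeR's quasi-likelihood test). Called changes against EV lie between -0.25 and 0.12, and *Eno2* is the only member called between *gdf6Y* and *gdf6Y* del9.

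Of 115 related genes in 9 lists, 103 were tested with *gdf6Y* against EV, and 6 were called higher and 7 lower. With *gdf6Y* del9 against EV, 103 were tested, 11 higher and 9 lower. Between the 2 plasmids, 105 were tested, 2 higher and 1 lower. The shares called higher and lower among all genes were 1.70% and 3.38%, 4.82% and 4.43%, and 0.599% and 0.410% in the same order. Among genes with a mean of at least 1000 they were 6.26% and 12.1%, 17.2% and 11.6%, and 1.07% and 1.44%. No read was counted on 9 of the related genes, among them *Pklr*, the liver pyruvate kinase, and *Pgk2*, the germ cell form of *Pgk1*.

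The list of the pyruvate dehydrogenase complex and its phosphatases also holds *Pcx*, which is neither. Of its 8 genes tested, 3 fell with *gdf6Y*, *Pcx* among them. Among all genes 3.38% were called lower, and 12.1% among those with a mean of at least 1000. *Pcx* exceeded that mean and *Pdp2* and *Pdpr* did not. With *gdf6Y* del9, 1 of the 8 rose and 1 fell, against 4.82% and 4.43% of all genes and 17.2% and 11.6% of those with a mean of at least 1000. *Pcx*, which carboxylates pyruvate in the mitochondria, fell in both comparisons with EV (log2 fold changes -0.18 with *gdf6Y*, adjusted p = 3.48e-05, and -0.11 with *gdf6Y* del9, adjusted p = 0.00929, edgeR). Its sample ranges overlapped, at 1502 to 1960 counts with EV, 1374 to 1767 with *gdf6Y* and 1465 to 1793 with *gdf6Y* del9. With *gdf6Y*, *Pdp2*, a phosphatase that reactivates pyruvate dehydrogenase, and *Pdpr*, the regulatory subunit of such a phosphatase, also fell (-0.14, adjusted p = 0.0352, and -0.16, adjusted p = 0.0195, edgeR). *Gfpt1*, which leads into the hexosamine pathway, fell in both comparisons (-0.11, adjusted p = 0.00296, and -0.12, adjusted p = 0.000553, edgeR). *Slc16a13*, another member of the monocarboxylate carrier family, rose in both (0.15, adjusted p = 0.0499, and 0.20, adjusted p = 0.000871, edgeR).

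Among 9 partners and oxygen sensors of Hif1a, *Egln1*, the prolyl hydroxylase that marks the protein for breakdown, rose with both plasmids (0.13, adjusted p = 0.000717, and 0.08, adjusted p = 0.0281, edgeR). Its sample ranges overlapped, at 3703 to 4439 counts with EV, 3923 to 4806 with *gdf6Y* and 3735 to 4658 with *gdf6Y* del9. *Arnt*, the dimerization partner, fell with *gdf6Y* del9 (-0.10, adjusted p = 0.00784, edgeR). Of 18 known hypoxia-inducible genes outside glycolysis, 3 rose and 1 fell with *gdf6Y*, and 1 rose and 2 fell with *gdf6Y* del9. Among all genes 1.70% rose and 3.38% fell with *gdf6Y*, and 4.82% and 4.43% with *gdf6Y* del9. Among genes with a mean of at least 1000 the shares were 6.26% and 12.1%, and 17.2% and 11.6%. *Mif* was called higher and *Ddit4* lower with both plasmids, but the sample ranges overlapped. *Mif* had 8488 to 9348 counts with EV, 8917 to 9686 with *gdf6Y* and 8770 to 9773 with *gdf6Y* del9. *Ddit4* had 2471 to 3563, 2199 to 3128 and 2307 to 2979 in the same order. *Bnip3* was called higher with *gdf6Y* than with *gdf6Y* del9 (0.14, adjusted p = 0.015, edgeR), with overlapping ranges of 1668 to 2386 and 1537 to 2173 counts.

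Among 11 other regulators, *Txnip*, which limits glucose uptake and is known to respond to glucose, fell with *gdf6Y* del9 (-0.29, SE 0.03, adjusted p = 1.52e-15, edgeR) and was higher with *gdf6Y* than with *gdf6Y* del9 (0.23, SE 0.04, adjusted p = 6.27e-07). It averaged 1880 ± 236 counts with EV (SD, n = 6), 1794 ± 208 with *gdf6Y* (SD, n = 5) and 1539 ± 186 with *gdf6Y* del9 (SD, n = 5). The sample ranges overlapped, at 1521 to 2122, 1572 to 2061 and 1298 to 1818 counts in the same order. *Txnip* is widely spread, so the limit given above for edgeR's p-values applies to it too. *Myc*, a known activator of *Ldha*, rose with *gdf6Y* del9 (0.13, adjusted p = 0.000117, edgeR). *Mlxip*, which encodes a glucose-sensing factor, fell with *gdf6Y* (-0.16, adjusted p = 0.000115, edgeR).

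Many members varied together from sample to sample within each group. The 18 hypoxia-inducible genes are a different list from the members, and 15 of them had a mean normalized count of at least 10. Their mean log2 level in each sample, taken as the deviation from the mean of its group, ranged from -0.22 to 0.17. The relation to the members was examined after this pattern was seen in the data, with Pearson's r and Spearman's rho over 16 samples. The values are a description with no p-value, since the pattern prompted the comparison and samples of the same number deviated alike in all 3 groups.

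*Bsg* had the highest r with the list (r = 0.949, rho = 0.912), and r was 0.922 without the 2 samples farthest from the median of the list, replicate 2 of *gdf6Y* and of *gdf6Y* del9. *Tpi1* (r = 0.947, rho = 0.944) and *Slc2a1* (r = 0.93, rho = 0.95) were next, and without the same 2 samples r was 0.929 and 0.911. *Ldha* (r = 0.864, rho = 0.809, and r = 0.794 without the 2 samples) and *Eno2* (r = 0.843, rho = 0.829, and r = 0.786 without them) were also high. *Hif1a* followed less closely (r = 0.689, rho = 0.665, and r = 0.637 without them). *Slc16a1* went the other way (r = -0.647, rho = -0.615, and r = -0.623 without them). *Pdha1*, *Eno3*, *Hk2* and *Pfkfb3* had r between -0.223 and 0.218.

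An r of at least 0.8 was reached by 13 of the 24 members with a mean of at least 1000 (54.2%) and by 85 of the 5392 other genes at that level (1.58%), the 15 listed genes left out. The median r was 0.826 over these members and -0.091 over these other genes. All genes share the libraries and their scaling. The total count of a sample had r = 0.181 with the list (rho = 0.241, and r = 0.0339 without the 2 samples).

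The deviations followed the replicate number of the labels. In replicate 1 the list deviated by 0.11 to 0.16 from its group mean in all 3 groups, and in replicate 4 by 0.14 to 0.17. In replicate 2 it deviated by -0.22 to -0.13 and in replicate 3 by -0.14 to -0.11. Replicate 5 lay between -0.04 and 0.06. Of the 13 members with r of at least 0.8, a set chosen for this pattern, 12 or 13 were above the group mean in every replicate 1 and replicate 4, and 0 in every replicate 2. What the numbers stand for is not given in the labels. Fits with the replicate number as a block changed several calls and are given below and in the closing section.

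From replicate 2 to replicate 4 (means over the 3 groups), *Eno2* differed by 0.41 on the log2 scale, *Slc2a1* by 0.24, *Hif1a* by 0.23, *Bsg* by 0.20, *Gapdh* by 0.16, *Ldha* by 0.09 and *Pgk1* by 0.09. Replicates 2 and 4 occur in every group, while replicate 6 occurs only in EV. Whether this pattern has a part in the differences between the groups was not tested. The differences of *Bsg*, *Gapdh* and *Hif1a* between *gdf6Y* del9 and EV were 0.09, 0.07 and -0.19. Fits that blocked on the replicate number, and left out EV replicate 6, gave 0.096, 0.0804 and -0.1915 for these genes. *Ldha* and *Pgk1* differed between *gdf6Y* and EV by 0.11 and 0.12 (*Pgk1* by 0.08 with the gene length offset). The blocked fits gave 0.1187 and 0.1202 for *Ldha* and *Pgk1*. *Eno3* differed from EV by 0.1176 with *gdf6Y* del9 in the blocked fit, and its r was -0.223.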

How the data were processed

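Poly(A) RNA-Seq libraries were prepared from 16 TM4 samples, 24 h after transfection. The authors extracted unique molecular identifiers, aligned reads with STAR (2.7.10a) to GRCm39, collapsed PCR duplicates (UMI-tools) and assigned reads to genes by strand using featureCounts (2.0.3), discarding multi-mapping and multi-overlapping reads; versions are from the submitters' processing notes. The deposited values are raw counts; 1 further replicate 6 of each *gdf6Y* plasmid is not analysed here.

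Columns were assigned to groups by the labels. Identifiers were matched to GENCODE vM39 (56017 of 56748); it is not the release used for counting. Genes in which 1 or more reads were counted among the samples compared entered edgeR (4.0.16, R 4.3.3) with TMM scaling and the legacy quasi-likelihood test, 2 groups per model, with Benjamini-Hochberg adjustment over all genes and 0.05 as the threshold. Standard errors came from the fold change and the F statistic. Normalized counts are counts per effective library size times the mean effective library size. Exact permutation tests used log2 of normalized counts plus 1, in scipy. Totals of 21486850 to 26444903 reads give standard errors near 0.02 for *Ldha* and 0.15 for *Pdk2* (*gdf6Y* against EV).

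Other settings tried were total counts, the size factors of DESeq2 (1.42.0) or its own test, filterByExpr, no low-count filter, edgeR 4's dispersion estimate, all 3 groups in 1 model, the replicate number as a block, a gene length offset, both together, and leaving out each replicate. Against EV, the fits with a block left out EV replicate 6, which has no counterpart in the other group. The fits were tested on simulated counts. All 37 members are named; of the related lists, genes called in at least 1 comparison could be named, as could genes with no count. The members and lists were chosen with earlier results of these data known. Replicate pairs of a group differed by more than sampling noise.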

Additional observations from a re-analysis of the deposited data

Results flagged for a closer look

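In 96 sets of values (32 members with a mean normalized count of at least 10, 3 groups), 7 held a sample far from the others by Dixon's test, which chance gives in about 1 of 20 sets. The number after each is the gap to the nearest sample over the range of the group. With *gdf6Y*, *Hk2* was high in replicate 1 at 2922 counts, against 2645 to 2708 in the others (0.772), and *Slc16a1* was low in the same replicate at 4643, against 4998 to 5104 (0.769). *Pfkm* was low in *gdf6Y* replicate 2 at 3131, against 3329 to 3364 (0.849). *Eno1* and *Eno3* were both high in *gdf6Y* replicate 3, at 20157 against 19588 to 19698 (0.808) and at 5723 against 5366 to 5468 (0.715). *Pfkfb1* was high in *gdf6Y* replicate 5 at 197.4, against 180.3 to 182.5 (0.871), and *Pfkfb3* was low in EV replicate 1 at 901.6, against 957.7 to 981 (0.707).

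*Eno2* differed between the effect of *gdf6Y* and the effect of *gdf6Y* del9 by 0.17 on the log2 scale (adjusted p = 0.000665, edgeR's quasi-likelihood test, Benjamini-Hochberg). The sample ranges of these groups overlap, and the exact permutation test over the same 10 samples gave p = 0.278.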

How the results depend on the processing

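*Ldha* in both comparisons with EV, *Pgk1* with *gdf6Y*, and *Eno3* and *Hif1a* with *gdf6Y* del9 kept their direction and their call in all 21 alternatives, and no called member changed direction in any. The number of members called did change, and the cause was not tested. For *gdf6Y* against EV, 3 members called higher became 6 with the gene length offset and 2 to 6 when 1 replicate was left out, and 2 called lower became 0 with DESeq2, 0 with filterByExpr, 1 each with edgeR 4's dispersion estimate, all 3 groups in 1 model and the gene length offset, and 1 to 3 when 1 replicate was left out. For *gdf6Y* against *gdf6Y* del9, 1 called higher became 0 with DESeq2, filterByExpr, edgeR 4's dispersion estimate and all 3 groups in 1 model, and 0 to 1 when 1 replicate was left out. For *gdf6Y* del9 against EV, 6 called higher became 3 with DESeq2, total counts and filterByExpr, 2 with all 3 groups in 1 model and 2 to 10 when 1 replicate was left out, and 2 called lower became 1 with DESeq2 and filterByExpr. The replicate numbers did not pair the samples over all genes (correlations of same-numbered samples between -0.035 and 0.191 over 12584 genes, and not every sample correlated best with its own number). Blocked fits against EV also left out EV replicate 6, which has no counterpart, so their samples differ from those of the main fit. With the replicate number as a block, 8 members were called higher with *gdf6Y* than with EV, and so were 912 of all 26062 genes tested. Leaving out EV replicate 6 without a block gave 3 members and 427 genes. The main fit called 3 members and 448 of 26316 genes higher. *Aldoa*, *Tpi1*, *Pgam1*, *Eno3* and *Bsg* were called with the block but not in the main fit. *Hk2* was called lower with the block (adjusted p = 0.0169, edgeR). With *gdf6Y* del9 the block added *Aldoa*, *Tpi1*, *Pgam1* and *Slc16a1* to the members called higher. With block and gene length offset, 8 members and 817 of 26062 genes were called higher with *gdf6Y*. For single called members, 67 alternative values lost the call and 226 kept it.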
